A study of Mus musculus with 13 samples.

Results

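Regulatory T cells (Tregs) newly formed in the thymus, called de novo Tregs in the study's labels, were compared between wild-type mice and mice without c-Rel. The comparison takes 4 of the study's 13 RNA sequencing libraries, chosen by their labels, and all 22048 genes of the count table for that stage. Wild-type libraries 1 and 2 carry the genotype cRel+/+Foxp3rfp and knockout libraries 1 and 2 the genotype cRel-/-Foxp3rfp, all on strain C57BL6/J and all from the thymus. Both genotypes therefore share the Foxp3rfp allele, by which cells that express Foxp3 carry a red fluorescent protein. CD4 T cells were enriched magnetically and then sorted by flow cytometry; the sources used here do not give the sort gate that defined a de novo Treg, nor the age and sex of the mice. The knockout is in the whole animal as far as the labels say, so every other cell of these mice carries it too. The study's other libraries, of the same 2 genotypes, hold thymic pre-Tregs (2 from wild type and 3 from the knockout) and splenic Tregs (2 and 2). No label says whether libraries of a genotype came from separate mice, so each p-value reflects library-to-library spread alone, part of which may be technical.

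c-Rel, encoded by Rel, is a DNA-binding subunit of NF-kB. In T cells, antigen receptor and CD28 signals release NF-kB dimers from their IkB inhibitors, and the dimers bind kB sites near target genes. c-Rel is known for its part in the formation of thymic Tregs, where it acts at the Foxp3 locus, and for its control of survival and cytokine genes in activated lymphocytes.

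The 4 libraries were deep and alike. They held between 25122095 and 28235996 counts, so that 3 counts correspond to 0.106 to 0.119 CPM (counts relative to library size, here always scaled by the library totals and TMM factors). Over the log-scaled CPM of tested genes, the correlation was 0.989 between the wild-type and 0.991 between the knockout libraries, against 0.978 to 0.980 across genotypes. Defining Treg genes were high in all 4, with Cd3e at 933 to 1027, Cd4 at 621 to 684 and Foxp3 at 709 to 821 CPM. Wild-type library 1 stood apart in erythroid genes, whose 11 markers summed to 107 CPM in it against 1.83 to 3.63 in the other libraries, and its summed level of 4 Y-linked genes was 211 CPM against 78.8 to 125. The 84 ribosomal protein genes of the table summed to between 9540 and 9683 CPM in wild type and to between 7752 and 8029 in the knockout, and the 13 mitochondrially encoded genes to between 4272 and 4573 against between 2939 and 3013. Every difference below is relative to the total of a library, and in bulk RNA fewer cells of a kind and less of an RNA per cell cannot be told apart.

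Promoter sequence was examined first, because the knockout removes a DNA-binding protein. RefSeq windows of 300 bases, from 250 before to 50 after an annotated start (GRCm38.p6), were matched by symbol for 9093 of the 11855 tested genes. A strict kB pattern, GGG followed by 2 bases of any kind and TTTCC, was searched on both strands; on the other strand it reads GGAAA, 2 bases of any kind and CCC. It lay in a window of 2.06% of the tested genes with a promoter (187 of 9093), of 2.96% of those that fell in the knockout (9 of 304) and of 1.96% of those that rose (5 of 255). Among falls of at least 2-fold the share was 0.826% (1 of 121). The looser pattern, GGG followed by 5 bases of any kind and CC, contains every match of the strict one. It lay in a window of 71.9% of the tested genes with a promoter, of 70.4% of those that fell and of 72.9% of those that rose. These shares describe the letters of the windows and say nothing of what c-Rel binds.

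Among the genes named in the results, 7 held the strict pattern, and 4 are shown because they stand for the survival, feedback and most strongly raised genes described below. Capitals mark the pattern, which in all 4 opens with GGAAA in the direction of the gene, and each stretch is given 5′ to 3′ along the gene's own strand. For Nfkbia (chr12:55492648-55492897, minus strand), which encodes the inhibitor IkB-alpha, and Madcam1 (chr10:79664309-79664558, plus strand), which encodes a mucosal addressin, the 250 bases before the start are shown. For Tnfaip3 (chr10:19015411-19015510, minus strand), which encodes the ubiquitin-editing enzyme A20, the last 100 bases before 1 of its 2 annotated starts are shown. For Bcl2l1 (chr2:152830916-152830945, minus strand), which encodes the survival protein Bcl-xL, 30 bases around the match before 1 of its 3 annotated starts are shown.
Bcl2l1: tacgcctctcGGAAAAACCCgggagtggtc
Tnfaip3: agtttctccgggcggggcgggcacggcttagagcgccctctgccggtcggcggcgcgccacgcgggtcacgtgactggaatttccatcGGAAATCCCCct
Nfkbia: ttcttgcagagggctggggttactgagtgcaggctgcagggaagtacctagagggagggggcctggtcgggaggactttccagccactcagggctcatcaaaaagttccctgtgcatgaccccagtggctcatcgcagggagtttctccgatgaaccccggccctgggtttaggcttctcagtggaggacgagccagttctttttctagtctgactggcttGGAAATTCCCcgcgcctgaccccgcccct
Madcam1: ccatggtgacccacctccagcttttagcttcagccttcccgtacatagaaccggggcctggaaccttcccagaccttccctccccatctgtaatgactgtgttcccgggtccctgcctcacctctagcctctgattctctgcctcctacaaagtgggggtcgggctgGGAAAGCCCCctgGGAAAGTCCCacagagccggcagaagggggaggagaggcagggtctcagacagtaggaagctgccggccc
The match began 218 bases before the start in Bcl2l1, 29 in Nfkbia and 12 in Tnfaip3, and Madcam1 held a pair of matches, at 83 and 70 bases. The first 3 of these genes fell in the knockout and Madcam1 rose. Of the named genes with the strict pattern that are not shown, Eno2 fell while Akap13 and Vim rose. Wnt3, Lad1, Il1r2 and Nkg7, which all fell more steeply than Bcl2l1, held no match in their windows.

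In de novo Tregs without c-Rel a limited set of genes was called, with more steep falls than steep rises. Of 11855 genes tested, 766 (6.46%) were called, which means an adjusted p under 0.05 by edgeR's quasi-likelihood test; 346 rose (2.92%) and 420 fell (3.54%). At least 2-fold changes were rises for 71 genes (0.599%) and falls for 171 (1.44%). The median log2 fold change of knockout over wild type over all tested genes was −0.0027. At the threshold, Fkbp5 (0.54, adjusted p = 0.0496) was the last gene inside and Cd22 (−2.16, adjusted p = 0.0501) the first outside. Leaving out 1 library gave between 527 and 761 calls.

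**Figure D1:**
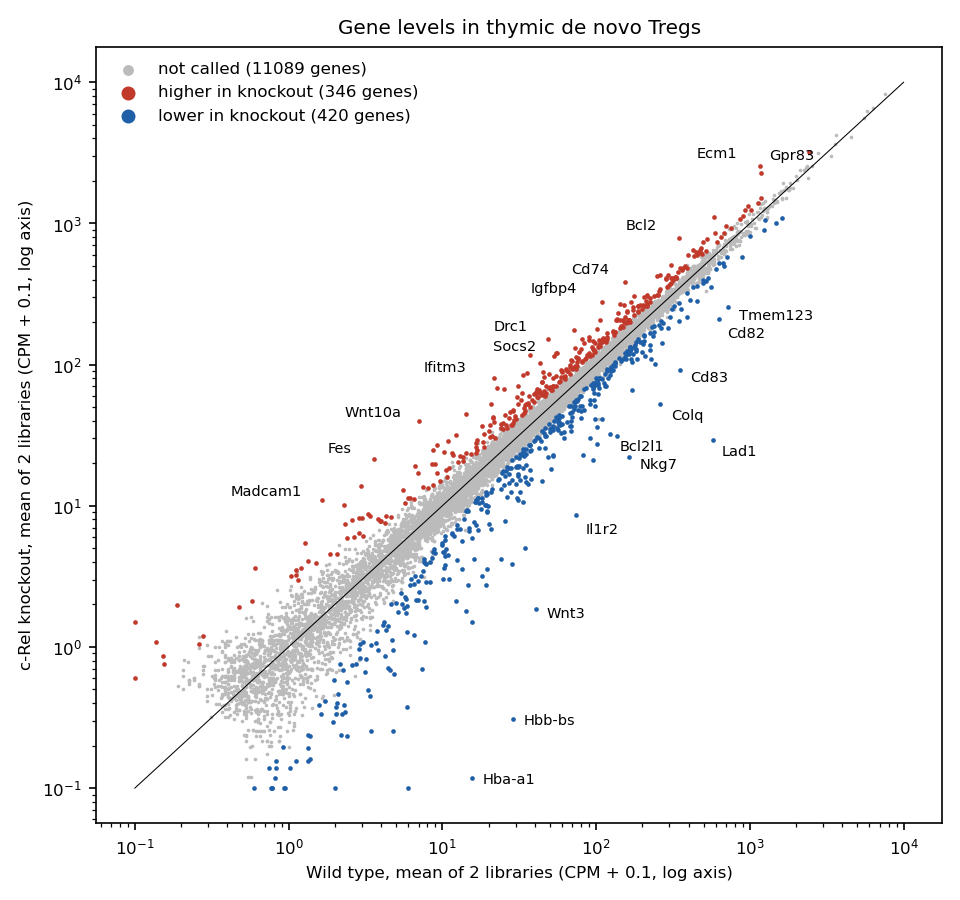
Mean level of each tested gene in 2 wild-type libraries (horizontal axis, CPM + 0.1, log scale) against 2 c-Rel knockout libraries (vertical axis, same scale), with 346 genes called higher in red, 420 called lower in blue and the rest in grey. Called genes lower in the knockout reach farther from the diagonal than called genes higher in it; Hba-a1 and Hbb-bs stood at 29.9 and 56.4 CPM in wild-type library 1 and at most at 1.09 CPM in the other 3 libraries.

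The steepest falls included a block of 3 adjacent genes. Lad1, which encodes the anchoring filament protein ladinin, lies at chr1:135818598-135833342 on the plus strand (GRCm38), and stood at 568 and 589 CPM in the wild-type and 26.8 and 31.9 CPM in the knockout libraries. Its neighbour Tnnt2, the cardiac troponin T gene, starts 3012 bases after it on the same strand and stood at 5.58 and 5.92 against 0.358 and 0.187 CPM (log2 fold change −4.38, SE 0.39, adjusted p = 5.76e-05). Tnni1, a troponin I gene that ends 7609 bases before Lad1, stood at 2.21 and 2.01 against 0.358 and 0.112 CPM (log2 fold change −3.15, SE 0.57, adjusted p = 0.00699). All 3 fell, although the troponin genes lie far below Lad1 and near the floor. None of their libraries overlapped between genotypes, which the choice of Lad1 and Tnnt2 already required. The next genes on each side, Tmem9 (−0.05) and Phlda3 (−0.61), were not called, with adjusted p values of 0.852 and 0.195.

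The neighbours of steeply changed genes, those of the Lad1 block included, were called in part. Among the tested neighbours of the 10 steepest falls, taking 2 genes on each side and leaving out those steepest falls themselves, 3 rose and 2 fell of 36 (13.9% called against 6.46% of all tested genes). The falls were Tnni1, from the block above, and Il1rl1, which lies 304339 bases from Il1r2. The rises, Nsf, Usp18 and Ccl4, ran against the falling genes beside them. These rises were not firm: Nsf and Usp18 lost their calls without each library in turn. Ccl4 lost its call without wild-type library 1 or knockout library 2. Beside the 10 steepest rises 4 rose and 0 fell of 40 (10%). Of these 4, Fut2 lost its call without each library in turn and by DESeq2 (adjusted p = 0.0787), and Dbp without wild-type library 1. Furin, a proprotein convertase gene 639 bases from Fes, stood at 115 and 119.7 against 154 and 181 CPM and rose (0.52, SE 0.09, adjusted p = 0.00652), and Ppm1j, a phosphatase gene 784 bases from Fam19a3, stood at 9.54 and 14.7 against 32.4 and 30.7 CPM and rose (1.38, SE 0.18, adjusted p = 0.000899). Where genes lie this close, reads cannot be assigned with certainty, since the strandedness of the count is not given.

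Other steep falls were in genes of very different kinds. Scin, which encodes an actin-severing protein, stood at 20.8 and 17.5 against 3.11 and 2.17 CPM (−2.86, SE 0.22), and Sdc4, a heparan sulfate proteoglycan gene, at 33.9 and 34.9 against 5.30 and 4.61 CPM (−2.80, SE 0.15). Colq, the gene for the collagen tail of acetylcholinesterase, was far more abundant and stood at 256 and 269 against 49.5 and 55.8 CPM (−2.32, SE 0.09). Peli2, a ubiquitin ligase gene of innate signalling (−2.58), Tg, the thyroglobulin gene (−2.55), the adaptor subunit gene Ap1m2 (−2.54), Fam129a (−2.12) and the sulfotransferase gene Chst2 (−1.98) also fell. The edgeR adjusted p of these 8 genes lay between 1.28e-07 and 6.72e-05. They were chosen among called genes without overlap between genotypes, so neither the calls nor the lack of overlap is further support. Among abundant membrane proteins, the tetraspanin gene Cd82 stood at 631 and 626 against 219 and 204 CPM and Tmem123 at 779 and 669 against 246 and 262 CPM (−1.57, SE 0.07, adjusted p = 3.88e-07 and −1.51, SE 0.09, adjusted p = 1.61e-06). By the difference in mean CPM, these 2 genes stood among the 5 largest falls, with Lad1 and the mitochondrial genes mt-Cytb and mt-Co1.

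Rises were smaller and reached a similarly mixed set. Drc1, which encodes a subunit of the ciliary dynein regulatory complex, stood at 50.2 and 47.0 against 147 and 155 CPM (1.64, SE 0.09), and Amica1, the gene for a junctional adhesion molecule of leukocytes, at 39.8 and 34.1 against 129 and 106 CPM (1.67, SE 0.12). Izumo1r, which encodes the folate receptor family member FR4 found on Tregs, rose from 554 and 618 to 1121 and 1097 CPM (0.92, SE 0.07). Fah, an enzyme of tyrosine breakdown (1.67), the stress pseudokinase gene Trib3 (1.42), the fatty acid elongase gene Elovl6 (1.36), the potassium channel gene Kcnk5 (1.54), the focal adhesion gene Tns1 (1.34) and Rgs11 (1.26) rose as well. The edgeR adjusted p of these 9 genes lay between 1.02e-06 and 0.000194. They too were chosen among called genes without overlap between genotypes. H2-Q2 (1.53, SE 0.18) belongs to a family of near-identical class I genes, so its level is uncertain.

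A few genes were read in 1 genotype only. Efcc1 had 0 counts in both wild-type libraries and 32 and 41 in the knockout libraries, at least 13.1-fold higher against a floor of 3 counts per library. Hist1h4m had 71 and 35 counts in wild type and 0 in each knockout library, which is at least 16.4-fold lower, but near-identical histone copies make its count uncertain.

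Gene lists are described next, and the share called of each, here and below, is to be read against 6.46% of all tested genes. Survival genes moved in opposite directions. Of 11 tested anti-apoptotic genes, 1 rose and 4 fell (45.5% called), and these 5 calls held without each library in turn. On a scale per kilobase of gene length, the Bcl-2 gene Bcl2 averaged 38 CPM per kilobase in wild type and 85.9 in the knockout, and Bcl2l1 26.7 and 6.96. Bcl2 was thus above Bcl2l1 per length in both genotypes, by a far wider margin in the knockout. Mcl1, the anti-apoptotic gene with the highest such level among the 3, stood at 192 and 185 CPM per kilobase and was not called (−0.05, SE 0.08, adjusted p = 0.815). Bcl2a1b, a gene of the A1 family, stood at 31.3 and 30.9 against 17.1 and 16.2 CPM (−0.90, SE 0.12, adjusted p = 0.00095), and Birc2, which encodes the inhibitor of apoptosis cIAP1, at 201 and 198 against 134 and 155 CPM (−0.47, SE 0.09, adjusted p = 0.00869). Reads of the A1 genes Bcl2a1b and Bcl2a1d can be shared between near-identical copies.

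Few genes that promote death were called. Of 16 tested, 1 rose and 1 fell (12.5% called, against 6.46% of all tested genes), and 2 fell without knockout library 1. The death receptor gene Fas stood at 166 and 173 against 101 and 118 CPM and fell (−0.63, SE 0.09, adjusted p = 0.00172), and its downstream caspase gene Casp8 stood at 441 and 420.2 against 578 and 602 CPM and rose (0.46, SE 0.07, adjusted p = 0.00255). Bcl2l11, which encodes the BH3 protein Bim, stood at 48.9 and 42.5 against 50.5 and 52.2 CPM and was not called (adjusted p = 0.46).

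Within the NF-kB system itself, Rela, Nfkb1 and Nfkb2 were not called, while 2 inhibitors fell weakly. Of 25 subunits, inhibitors and signalling proteins tested, 2 rose and 2 fell (16% called). Rel itself was still read, at 98.7 and 96.2 CPM in wild type and 87.3 and 95.7 CPM in the knockout (−0.09, SE 0.09, adjusted p = 0.665). The count covers the whole gene and does not show which exons were read, so it does not check the genotype. Per kilobase of length, Rela averaged 105 CPM in wild type and 102 in the knockout, Nfkb2 115 and 108, and Nfkb1 13.4 and 14.5. Relb, the subunit of the alternative pathway, stood at 162 and 164 against 202 and 210.2 CPM and rose (0.34, SE 0.07, adjusted p = 0.0215). It was not called without wild-type library 1 (adjusted p = 0.115), wild-type library 2 (0.0983) or knockout library 2 (0.0567). Nfkbiz, which encodes the atypical inhibitor IkB-zeta, stood at 158 and 148 against 199 and 203 CPM and rose (0.40, SE 0.08, adjusted p = 0.0108), with an adjusted p of 0.0945 without wild-type library 2.

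The feedback inhibitors with a kB pattern in the stretches shown above fell less firmly than Bcl2l1. Nfkbia stood at 1062 and 949.8 CPM in wild type and 843 and 799 in the knockout (−0.29, SE 0.07, adjusted p = 0.0405), and its adjusted p was 0.261 without wild-type library 1 and 0.121 without knockout library 2. Tnfaip3 stood at 517 and 263 against 214 and 217 CPM (−0.85, SE 0.22, adjusted p = 0.0427). Wild-type library 1 stood far above the other 3 libraries, and without it the adjusted p of Tnfaip3 was 0.151. DESeq2 gave 0.415, limma-voom 0.0744 and a minimum count of 50 gave 0.052.

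**Figure D2:**
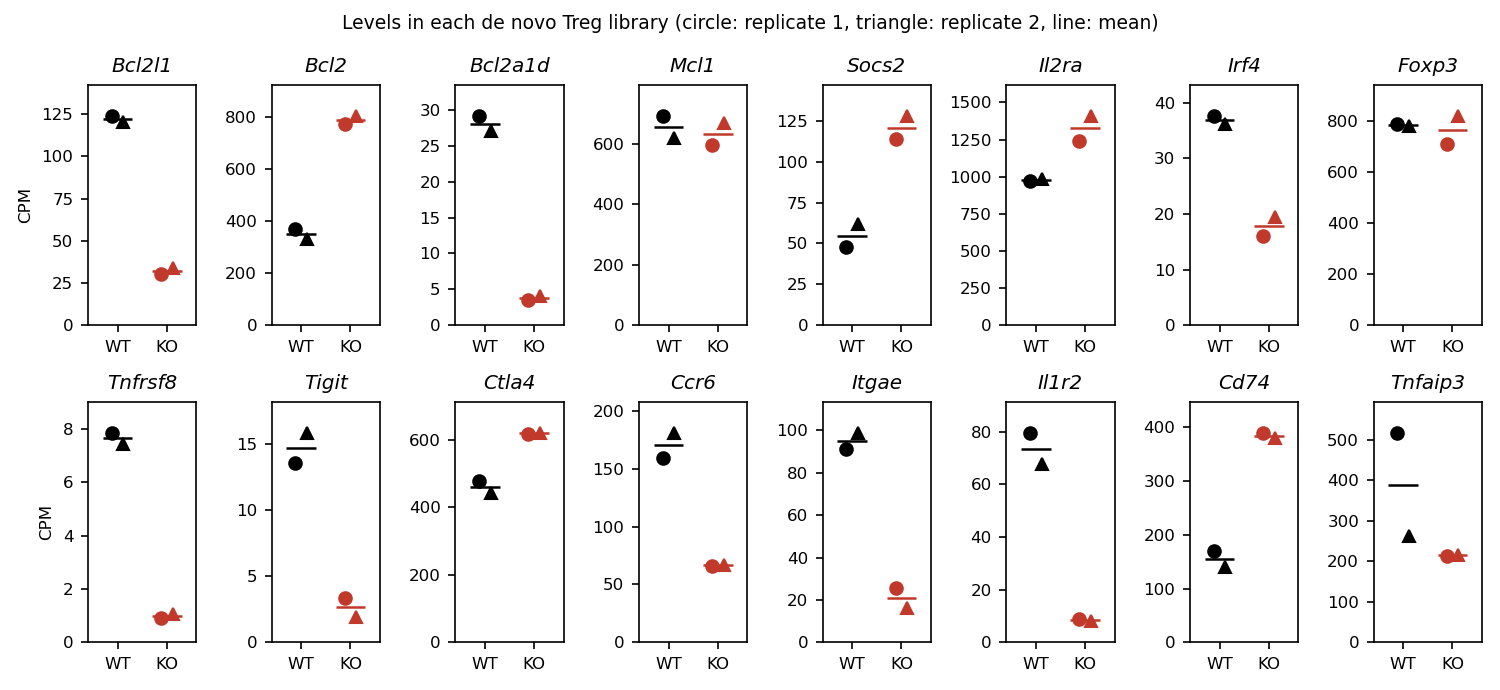
Level of 16 genes in each de novo Treg library (vertical axis, CPM, from 0), wild type in black and c-Rel knockout in red, with a circle for replicate 1, a triangle for replicate 2 and a line for the mean of each pair. Bcl2l1, Tnfrsf8 and Il1r2 separate widely between genotypes, Foxp3 and Mcl1 overlap, and the 2 wild-type libraries of Tnfaip3 lie farther apart than their lower one lies from the knockout.

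Genes of the IL-2 and STAT5 response were called higher more often than lower. Of 18 tested, 7 rose and 2 fell (50% called; median log2 fold change 0.28), and without each library in turn 7 or 8 rose. Besides Bcl2, Socs2, Osm and Il2ra, the rises were feedback inhibitors of cytokine signalling. Socs1 stood at 149 and 171 against 233 and 248 CPM (0.59, SE 0.09, adjusted p = 0.00194) and Socs3 at 53.3 and 64.9 against 94.0 and 89.6 CPM (0.64, SE 0.11, adjusted p = 0.00429). Cish rose by less (0.41, SE 0.08, adjusted p = 0.0108) and lost its call without wild-type library 1 (adjusted p = 0.0644). The 2 falls were Gadd45b (−1.50, SE 0.15, adjusted p = 0.000146), the largest change of the list, and Bcl6 (−0.52, SE 0.13, adjusted p = 0.0337). Stat5a, which encodes the transcription factor itself and is not in this list, also fell. It stood at 509 and 527 against 374 and 413 CPM (−0.40, SE 0.08, adjusted p = 0.00938), a call lost without wild-type library 2 (−0.37). Pim1, Pim2 and Myc, further targets of the pathway, were not called.

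Cytokine receptor genes were called in both directions. Of 28 tested, 6 rose and 5 fell (39.3% called; median 0.0010). Il2rb, the beta chain of the IL-2 and IL-15 receptors, stood at 2527 and 2353 against 3147 and 3240.5 CPM (0.39, SE 0.06, adjusted p = 0.00378). Il10ra, the ligand-binding chain of the IL-10 receptor, stood at 82.3 and 79.9 against 153 and 149 CPM (0.90, SE 0.08, adjusted p = 5.57e-05) and Il6ra at 90.5 and 97.7 against 128 and 140.1 CPM (0.51, SE 0.09, adjusted p = 0.00508). All 3 rose, together with Il2ra, Il4ra and Il12rb2. The falls included receptor genes of the IL-1 family. Il1rl1, which encodes the IL-33 receptor ST2, stood at 8.01 and 12.2 against 2.91 and 4.16 CPM (−1.51, SE 0.27, adjusted p = 0.00625) and Il18rap, a chain of the IL-18 receptor, at 8.70 and 6.66 against 2.35 and 3.22 CPM (−1.46, SE 0.26, adjusted p = 0.00652). Il12rb1, shared by the IL-12 and IL-23 receptors, stood at 25.1 and 34.8 against 15.9 and 12.4 CPM (−1.09, SE 0.18, adjusted p = 0.00388). Il9r, at 3.01 and 3.21 against 0.916 and 0.525 CPM, also fell (−2.11, SE 0.41, adjusted p = 0.0108) and lies near Rel on the chromosome.

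Transcription factor genes of differentiated Tregs fell while Foxp3 and Ikzf2 did not pass the test. Of 38 factors tested, 1 rose and 10 fell (28.9% called; median −0.12), and 8 to 10 fell without each library in turn. Irf4, which directs effector Treg differentiation, averaged 36.9 CPM in wild type and 17.8 in the knockout (−1.05, SE 0.13, adjusted p = 0.000468), and Batf, its AP-1 partner, at 96.6 and 108 against 62.1 and 61.9 CPM (−0.72, SE 0.09, adjusted p = 0.000678). Rora, an orphan receptor gene of tissue Tregs, stood at 69.1 and 67.1 against 36.2 and 36.6 CPM (−0.90, SE 0.09, adjusted p = 0.000179). All 3 held less in every knockout than in every wild-type library. Ikzf4, which encodes Eos, a partner of Foxp3, fell from higher levels, 350.2 and 367 against 222 and 271 CPM (−0.54, SE 0.09, adjusted p = 0.00579). Maf (−1.80, SE 0.31) and Tox2 (−1.88, SE 0.26) fell more steeply from levels under 10 CPM. Prdm1, which encodes Blimp-1, stood at 7.65 and 9.93 against 4.74 and 4.91 CPM (−0.87, SE 0.22, adjusted p = 0.0384). Its call was lost without wild-type library 2 or without knockout library 1 or 2 (adjusted p = 0.21, 0.0812 and 0.0654). The rise was in Foxp1, a regulator of quiescence (0.33, SE 0.08, adjusted p = 0.0234), whose call was lost without wild-type library 1 (adjusted p = 0.0512), wild-type library 2 (0.147) or knockout library 2 (0.0866). Ikzf2, which encodes Helios, stood at 179.9 and 201 against 161 and 196 CPM (adjusted p = 0.712).

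In the TNF receptor superfamily, the CD30 receptor and its ligand fell together. Of 18 genes tested, 2 rose and 3 fell (27.8% called; median −0.10). Tnfrsf8, which encodes CD30, stood at 7.83 and 7.43 against 0.916 and 1.05 CPM (−2.95, SE 0.28, adjusted p = 7.75e-05), and Tnfsf8, the CD30 ligand gene, at 96.0 and 99.2 against 48.3 and 52.9 CPM (−0.95, SE 0.09, adjusted p = 0.000102). Tnfrsf1b, which encodes TNFR2, a receptor high on Tregs, stood at 673 and 666 against 511 and 535 CPM (−0.36, SE 0.07, adjusted p = 0.00949). The receptors that mark developing thymic Tregs did not pass the test: Tnfrsf4 (OX40) had a log2 fold change of −0.18, Tnfrsf18 (GITR) of −0.13 and Tnfrsf9 (4-1BB) of −0.26, with adjusted p values of 0.196, 0.422 and 0.0557. Tnfrsf9 was called lower by DESeq2 (adjusted p = 0.0295) and by limma-voom (0.0454). The rises were in ligand genes. Cd40lg, the CD40 ligand gene, stood at 23.9 and 19.5 against 44.4 and 33.7 CPM (0.85, SE 0.15, adjusted p = 0.00651), and Lta, the lymphotoxin-alpha gene, at 143 and 175 against 219 and 255 CPM (0.58, SE 0.11, adjusted p = 0.00792; 0.0512 without wild-type library 1).

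Costimulatory and checkpoint receptor genes did not move as one. Of 18 tested, 2 rose and 5 fell (38.9% called; median −0.22). Tigit, which encodes an inhibitory receptor for CD155, stood at 13.6 and 15.8 against 3.34 and 1.95 CPM (−2.48, SE 0.25, adjusted p = 0.000147). Cd80, which encodes a ligand of CD28 and CTLA-4, fell from 5.33 and 3.56 to 0.796 and 0.375 CPM (−2.92, SE 0.43, adjusted p = 0.00179). Cd28 rose weakly, from a mean of 331 to one of 413 CPM (0.32, SE 0.08, adjusted p = 0.0298), a call lost without wild-type library 1 or 2 or without knockout library 1 (adjusted p = 0.13, 0.101 and 0.148). The other falls, in Lag3, Havcr2 and Cd226, were also each lost without at least 1 library, so that without wild-type library 1, wild-type library 2, knockout library 1 and knockout library 2 the number of falls was 3, 2, 4 and 3. Icos, Pdcd1 and Cd5 were not called.

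Among 17 tested mediators of suppression, 3 rose and 6 fell (52.9% called), and 4, 3, 4 and 3 fell without those libraries in the same order. Penk, the proenkephalin gene of tissue Tregs, stood at 199 and 286 against 101 and 100.3 CPM (−1.27, SE 0.14, adjusted p = 0.000223). Furin, whose protease processes TGF-beta, was among the rises described above. Nt5e (CD73), Lrrc32 (GARP) and Tgfb1 were not called. Il10 was listed but not tested, at 0.075 to 0.544 CPM.

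Chemokine and other homing receptors were called lower more often than higher. Of 20 tested, 2 rose and 8 fell (50% called; median −0.82), and 6, 5, 9 and 6 fell without wild-type library 1, wild-type library 2, knockout library 1 and knockout library 2. Besides Ccr6, the falls held Ccr8, a receptor of skin and tissue Tregs, at 243 and 206 against 142 and 109 CPM (−0.84, SE 0.12, adjusted p = 0.00172), and Gpr183, the oxysterol receptor gene, at 81.4 and 85.3 against 56.9 and 38.8 CPM (−0.80, SE 0.15, adjusted p = 0.00764). Gpr15, a receptor for homing to the colon, stood at 6.49 and 5.04 against 1.51 and 0.825 CPM (−2.30, SE 0.34, adjusted p = 0.00202). Cxcr3 (−0.90) and Cxcr6 (−1.11) fell but were not called without wild-type library 2 (adjusted p = 0.0563 and 0.0648), Cxcr3 also not without knockout library 2 (0.0749). Receptors for lymph node entry and thymic exit went otherwise. Ccr7 stood at 1857 and 1807 against 1996 and 1848 CPM and was not called (adjusted p = 0.667). S1pr1, the sphingosine phosphate receptor gene of thymic exit, stood at 761 and 742 against 921 and 926 CPM (0.30, SE 0.07, adjusted p = 0.0199), a call that was lost without wild-type library 1 (adjusted p = 0.0669) or 2 (0.116). Gpr18 stood at 95.3 and 94.2 against 156 and 137 CPM and rose (0.63, SE 0.09, adjusted p = 0.00141).

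Integrins and adhesion genes moved both ways. Of 30 tested, 6 rose and 4 fell (33.3% called; median 0.19), with 3, 4, 7 and 8 rises without the libraries in the order above. Itga4, the alpha-4 chain that pairs with the beta-1 and beta-7 integrins, stood at 60.6 and 68.5 against 38.5 and 39.3 CPM (−0.73, SE 0.10, adjusted p = 0.00132), and Icam1, the ligand of LFA-1, at 169 and 174 against 107 and 99.9 CPM (−0.73, SE 0.08, adjusted p = 0.000262). Itga6, the alpha chain of laminin receptors, rose from 167 and 171 to 264 and 291 CPM (0.72, SE 0.08, adjusted p = 0.000273) and Epcam from 18.1 and 15.4 to 29.6 and 28.7 CPM (0.80, SE 0.13, adjusted p = 0.00359).

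Markers of mature Tregs that return to the thymus fell widely in the knockout. Of 20 tested markers of recirculating mature Tregs, 12 fell and 0 rose (60.0% called; median −0.88), and 11, 8, 11 and 9 fell without the libraries in the order above. They include S100a4, a calcium-binding protein gene, at 4.68 and 4.51 against 1.55 and 0.487 CPM (−2.18, SE 0.44, adjusted p = 0.0125), along with Ccr6, Ccr8, Il1r2, Il1rl1, Itgae, Itgb1 and Klrg1. Not every marker followed. Nt5e stood at 229 and 247 against 227 and 233 CPM (adjusted p = 0.809), and Icos, Cd44 and Klf6 were not called. The sum of the 21 markers was 1448 to 1503 CPM in wild type and 977 to 1002 in the knockout. Of 18 tested markers of newly made thymic Tregs 3 fell and 0 rose (16.7% called; median −0.11), and their sum was 4835 to 5500 CPM in wild type and 5031 to 5373 in the knockout. Without the libraries in the order above 1, 4, 5 and 3 of them fell. The falls were Cd81 (−0.47, SE 0.08, adjusted p = 0.00319), Cd24a (−1.09, SE 0.22, adjusted p = 0.0139) and Sox4 (−0.41, SE 0.09, adjusted p = 0.0231), of which Cd24a and Sox4 were not called without wild-type library 1 (adjusted p = 0.0614 and 0.181), and Sox4 not without knockout library 1 (0.0533). Rag1, whose product rearranges antigen receptor genes, stood at 2.03 and 2.15 against 1.39 and 1.16 CPM and was not called (adjusted p = 0.375). The lists share their genes with the homing, adhesion and cytokine receptor lists above, and the share of recirculating cells in each library was not tested.

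**Figure D3:**
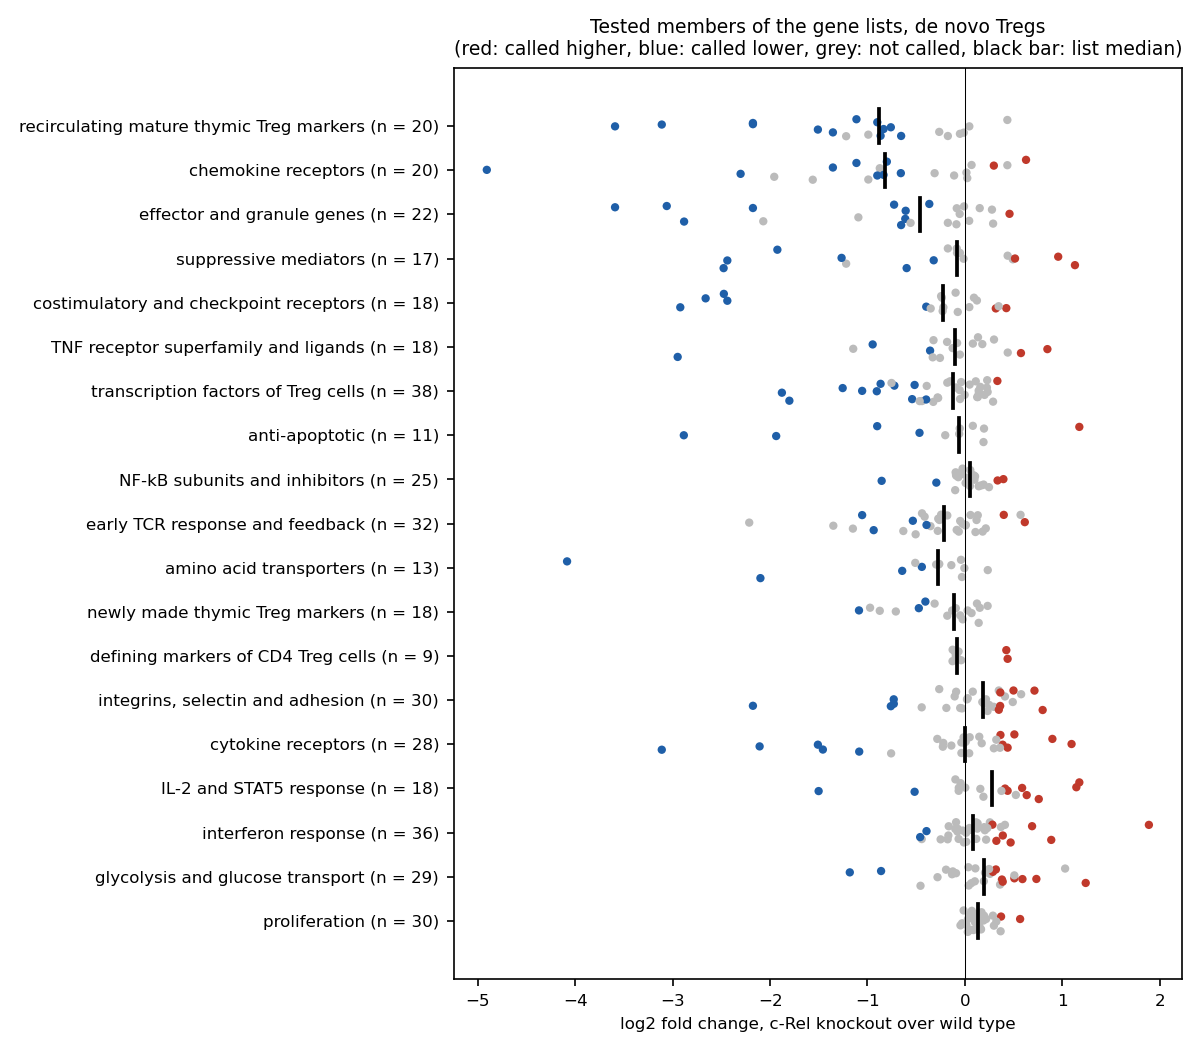
Log2 fold change of each tested member of 19 gene lists (horizontal axis, c-Rel knockout over wild type), with called rises in red, called falls in blue, other members in grey and a black bar at each list's median. Recirculating Treg markers and chemokine receptors have the lowest medians, −0.88 and −0.82, and the IL-2 and STAT5 response the highest, 0.28.

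Effector and cytotoxic granule genes fell for 9 of 22 tested and rose for 1 (45.5% called; median −0.46), with 8, 5, 9 and 7 falls without the libraries in the order above. The rise was Vim, the vimentin gene, at 491 and 479 against 665 and 668 CPM (0.46, SE 0.07, adjusted p = 0.00184). The granzyme and perforin genes Gzma, Gzmb and Prf1 were not called (0.04, −0.17 and 0.28, adjusted p = 0.975, 0.823 and 0.538). CD8 T and NK cell markers overlap with this list. Of 12 tested, 4 fell and 0 rose (33.3% called, against 6.46% of all tested genes). Among these falls, Eomes and Xcl1 were not called without wild-type library 2 (log2 fold change −1.10 and −1.27). Eomes was also not called without knockout library 1 or 2 (−1.25 in both). The CD8 T and NK markers summed to 1052 and 1163 CPM in wild type and to 648 and 657 in the knockout. That sum was carried by Ctsw, a cathepsin gene, at 826 and 941 against 566 and 591 CPM (−0.61, SE 0.08, adjusted p = 0.000744), and by Nkg7. Cd8a stood at 1.46 to 4.50 CPM and Ncr1, a defining NK receptor gene, at 0 to 0.119 CPM in all 4 libraries.

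Early T cell receptor response and feedback genes rose for 2 and fell for 4 of 32 tested (18.8% called; median −0.21). The number of falls was 2, 10, 5 and 9 without wild-type library 1, wild-type library 2, knockout library 1 and knockout library 2, so it depends on which libraries are used. Rgs2, a regulator of G protein signalling, stood at 87.7 and 71.3 against 40.9 and 42.1 CPM (−0.94, SE 0.11, adjusted p = 0.00045) and Spry1, an inhibitor of growth factor signalling, at 62.2 and 76.1 against 103 and 109 CPM (0.62, SE 0.10, adjusted p = 0.00465). Rgs2 and Irf4 fell and Spry1 rose in each of these fits. Nr4a1, a direct readout of receptor signalling in the thymus, stood at 422 to 608 CPM and was not called.

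Interferon response genes rose for 7 and fell for 2 of 36 tested (25% called; median 0.09), with 3, 6, 5 and 6 rises and 2, 0, 1 and 2 falls without the libraries in the order above. Irf8, a transcription factor gene, stood at 77.3 and 82.8 against 122 and 136 CPM (0.69, SE 0.09, adjusted p = 0.000858) and Oas2, an antiviral RNA sensor gene, at 21.0 and 19.3 against 32.7 and 41.9 CPM (0.89, SE 0.14, adjusted p = 0.00261). Irf7 and Ifit1 were not called. Cd74, which encodes the invariant chain of MHC class II, stood at 169 and 139 CPM in wild type and 389 and 379 in the knockout (1.32, SE 0.09, adjusted p = 1.1e-05). The class II genes H2-Aa and H2-Ab1 stood at 2.44 to 12 and 4.31 to 21.0 CPM, with their highest values in wild-type library 1, and were not called. Of 15 tested myeloid and dendritic markers 1 rose, Cd74 itself, and 1 fell (13.3% called), and 1, 4, 5 and 1 fell without the libraries in the order above; the defining markers Cd14 and Clec9a had 0 counts in all 4 libraries. The summed level of these markers was 316 and 371 CPM in wild type and 515 and 552 in the knockout, nearly all of it Cd74 and Cst3. Of 6 tested B cell markers, 1 rose and 1 fell (33.3% called, against 6.46% of all tested genes). The rise of Cd79b and the fall of Ms4a1 were both lost without wild-type library 1 (log2 fold change 0.39 and −2.30). Both were also lost without knockout library 2 (0.65 and −1.64). The B cell markers summed to 31.0 to 38.8 CPM.

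Metabolic genes were called in both directions. Glycolysis and glucose transport genes rose for 8 and fell for 2 of 29 tested (34.5% called; median 0.19), with 5, 5, 6 and 5 rises and 2, 2, 1 and 3 falls without the libraries in the order above. Slc16a3, which encodes the lactate exporter MCT4, stood at 59.1 and 50.5 against 82.5 and 82.7 CPM (0.59, SE 0.10, adjusted p = 0.0046), and the hypoxia-response gene Ankrd37 at 14.2 and 14.2 against 23.5 and 23.8 CPM (0.73, SE 0.13, adjusted p = 0.00625). Eno1 rose (0.51, SE 0.07) while the neuronal enolase gene Eno2 fell, from 33.7 and 36.4 to 18.8 and 19.8 CPM (−0.86, SE 0.12, adjusted p = 0.00105). Amino acid transporters had 12 of 13 log2 fold changes below 0, but 4 were called, all lower (30.8%), and 1 to 3 were called without each library. Slc1a4, a transporter of neutral amino acids, stood at 3.55 and 3.87 against 0.478 and 1.24 CPM (−2.10, SE 0.43, adjusted p = 0.0137). Proliferation genes had 27 of 30 log2 fold changes above 0 and 2 calls, both higher (6.67%, against 6.46% of all genes), with 4, 0, 0 and 2 without the libraries in the order above. Of 24 genes of lipid metabolism 1 fell (4.17% called), or 3 without knockout library 2.

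Genes on each side of Rel were examined separately, since the targeted allele and its neighbours travel together in a cross; the origin of the allele is not given in the sources used here. Rel lies at chr11:23736847-23770970 on the minus strand. Of the 50 tested genes on either side, 100 in all, 2 rose and 6 fell (8% called, against 6.46% of all tested genes), and 4 rose without knockout library 1. Pus10, the tested gene next to Rel, stood at 23.3 and 27.4 against 42.1 and 44.9 CPM and rose (0.78, SE 0.12, adjusted p = 0.00204). Ugp2, an enzyme gene of UDP-glucose synthesis, fell from 56.7 and 58.9 to 35.5 and 39.0 CPM (−0.63, SE 0.10, adjusted p = 0.00319), as did the nucleolar gene Npm1 (−0.49, SE 0.08, adjusted p = 0.00365), Il9r and Slc1a4. The fall of Hba-a1 was uneven: wild-type library 1 held 29.9 CPM against 1.06 in the other wild-type library, and limma-voom did not call it (adjusted p = 0.256), while edgeR still called it without that library. The call of Pkd1l1 (−4.41, SE 0.99), a gene with at most 1.38 CPM, was lost without wild-type library 1 (adjusted p = 0.21), knockout library 1 (0.0913) or knockout library 2 (0.102).

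**Figure D4:**
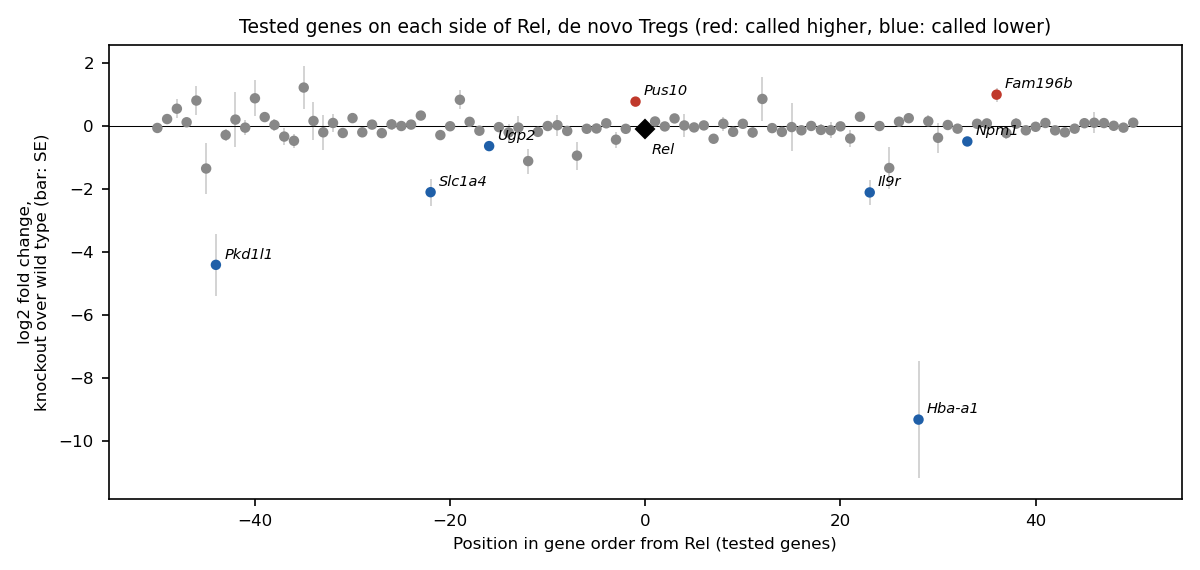
Log2 fold change (vertical axis, c-Rel knockout over wild type, bars for the SE) of Rel and the 50 tested genes on each side of it, by their position in gene order (horizontal axis). Most points lie near 0; 2 genes were called higher (red) and 6 lower (blue), with Pus10 next to Rel.

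In splenic Tregs of the same genotypes, which were compared within their own table, 168 of 12264 genes were called (1.37%), of which 75 rose (0.612%) and 93 fell (0.758%). Of the 346 rises of de novo Tregs, 36 were also rises in the spleen (10.4% of the first list, 48.0% of the second), and of the 420 falls 34 were also falls (8.1% and 36.6%). The number of splenic calls depended on the libraries used, and it was higher without any 1 splenic library than with all of them. It grew most without knockout library 1 or 2 of the spleen, and the shared rises and shared falls were then far more numerous too. With all libraries, 6 genes went in opposite directions, and 37 and 19 did without splenic knockout library 1 or 2. Axl, Il1rl1 and Ahnak fell in the thymus and rose in the spleen, and Asf1b, Tpi1 and Kif22 rose in the thymus and fell in the spleen. Colq had a log2 fold change of −2.32, SE 0.09 in de novo and −2.46, SE 0.14, adjusted p = 0.000885 in splenic Tregs, Cd74 of 1.32, SE 0.09 and 1.21, SE 0.13, adjusted p = 0.013, and Pdzk1ip1 of 1.31, SE 0.18 and 1.57, SE 0.13, adjusted p = 0.00325.

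The genotype effect itself was then compared between the 2 sites with an interaction test. The difference was called for 134 of 12532 genes (1.07%), more positive in de novo Tregs for 63 (0.503%) and more negative for 71 (0.567%). A more positive difference need not be a rise in de novo Tregs. Many of the 63 are proliferation genes, such as Mki67 (difference 1.28, SE 0.22, adjusted p = 0.0282) and Plk1 (1.51, SE 0.29, adjusted p = 0.039). In de novo Tregs these 2 genes were not called (0.09 and 0.16), while Ccne1 and Rrm2, also among the 63, rose. Fam129a stood at 135 and 136 against 32.5 and 29.8 CPM in de novo Tregs and at 157 and 153 CPM in wild-type and 110.2 and 93.9 splenic knockout Tregs, a difference between the log2 fold changes of −1.53, SE 0.14, adjusted p = 0.00118. Igfbp4, an insulin-like growth factor binding protein gene, rose from 107 and 109.7 to 273 and 285 CPM in de novo Tregs and stood at 257 and 250.4 CPM in wild-type and 265 and 274 splenic knockout Tregs (difference 1.27, SE 0.11, adjusted p = 0.000804). Axl, a receptor tyrosine kinase gene for the clearance of dying cells, fell from 30.3 and 31.5 to 18.8 and 18.5 CPM in de novo Tregs and stood at 66.5 and 55.1 CPM in wild-type and 112 and 101 splenic knockout Tregs (difference −1.55, SE 0.17, adjusted p = 0.00245). The count of called differences rests on single libraries: it was 69, 38, 23 and 27 without wild-type library 1, wild-type library 2, knockout library 1 and knockout library 2 of the de novo Tregs, and 26, 21, 462 and 171 without the corresponding splenic ones. Site coincides with count table here, so differences between tables cannot be told apart from those between sites.

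**Figure D5:**
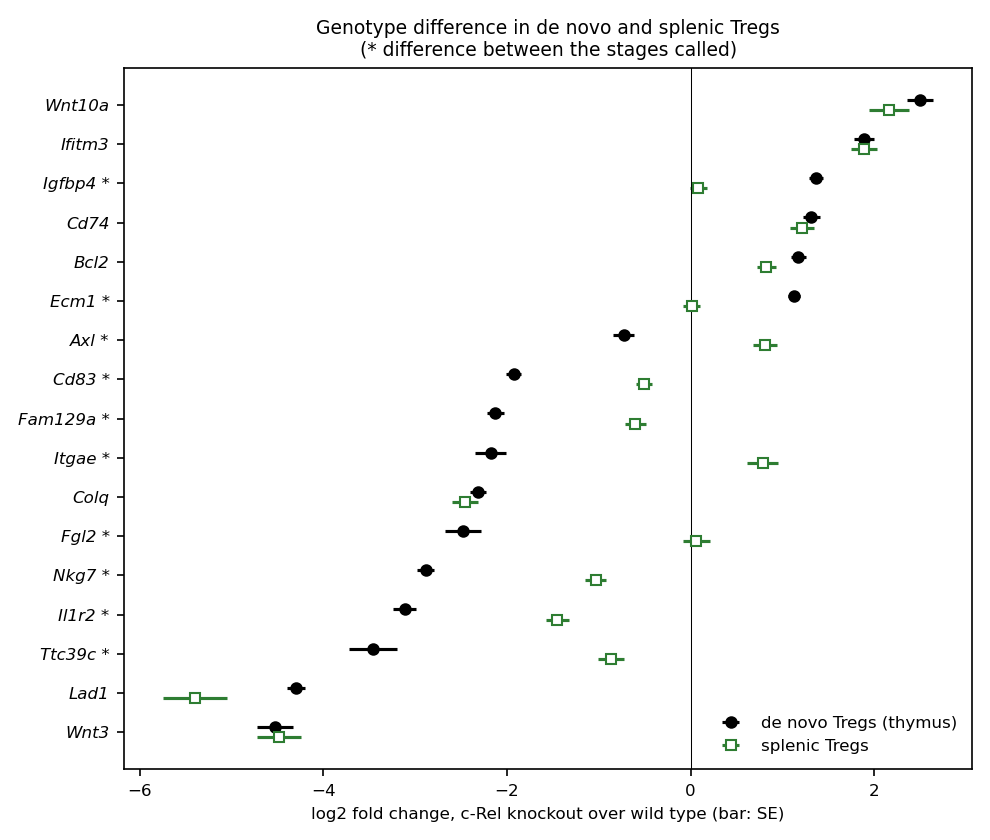
Log2 fold change of c-Rel knockout over wild type (horizontal axis, bars for the SE) of 17 genes in de novo Tregs (black circles) and splenic Tregs (green squares); an asterisk marks genes whose difference between the sites was called. Wnt3, Colq, Cd74 and Ifitm3 lie close at both sites, while Fgl2, Ecm1 and Igfbp4 lie near 0 in splenic Tregs and Axl lies on opposite sides of 0.

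Against pre-Tregs, the stage before, 3 of 12608 genes (0.0238%) differed in their genotype effect, 1 more positive (0.00793%) and 2 more negative (0.0159%) in de novo Tregs, and 1024 had an unadjusted p under 0.05; limma-voom called 2. Rcn1, which encodes a calcium-binding protein of the endoplasmic reticulum, stood at 66.1 and 77.5 against 167 and 183 CPM in de novo Tregs and rose (1.29, SE 0.10, adjusted p = 1.58e-05), with a log2 fold change of −0.38, SE 0.18 in pre-Tregs (difference 1.73, SE 0.20, adjusted p = 0.0346). Nkg7 and Ccl5 had differences of −2.95, SE 0.31, adjusted p = 0.0241 and of −3.53, SE 0.44, adjusted p = 0.0347. The spread between libraries was wider in this comparison, with a common biological coefficient of variation of 0.206 against 0.0939 among the de novo libraries. The calls of Rcn1, Nkg7 and Ccl5 were all lost without any 1 de novo library. Leaving out pre-Treg knockout libraries 1, 2 and 3 gave 14, 74 and 0 called differences.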

How the data were processed

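Gene-level read counts of 4 libraries of thymic de novo Tregs were analysed, with 4 splenic Treg and 5 pre-Treg libraries for the comparisons between stages. The values are raw counts as deposited by the authors, whole numbers with no normalization, in 1 table per stage. Per the submitters' processing notes, the tools were STAR 2.5.2, Subread 1.5.2 with featureCounts, Picard 2.9.0, limma, MultiQC and FastQC, and the genome build was GRCm38. The sources used here do not give the annotation release or whether counting used strand. All 13 per-sample columns were used and 0 left out. Titles gave each sample's group and replicate number. Replicates differed by more than sampling noise (chi-square per gene 13.4 in wild type and 11.8 in the knockout).

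Counts were filtered with filterByExpr (min.count 10, min.total.count 15), scaled by TMM and tested in R 4.3.3 with the quasi-likelihood test of edgeR 4.0.16, on the de novo libraries alone for the genotype and on the 4 groups together for the difference between stages. P-values were adjusted over all tested genes by the Benjamini-Hochberg method, and unless another tool is named every adjusted p is of this test. A gene was called, or said to rise or fall, at an adjusted p under 0.05. The procedure was tested on simulated data with 200 changed genes. For the genotype in de novo Tregs, 83% of 2-fold and 96% of 4-fold changes were recovered, with 24 false calls. Against splenic Tregs the shares were 63% and 75% (13 false calls), and against pre-Tregs 9% and 63% (4 false calls). Most 2-fold differences from pre-Tregs would thus be missed. Even had all 200 changed genes been recovered, the 24 false calls would exceed a share of 0.05 of the calls. The same holds for the 13 against splenic Tregs. The called genes may therefore include more false calls than the threshold states. The alternatives were DESeq2 1.42.0, limma-voom (limma 3.58.1), other scalings, other filters, the replicate number as a block and leaving out each library. Leaving out each splenic library for the splenic calls was added after seeing the data. A fit with 1 library in an arm assumes that it varies like the others.

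Levels per kilobase divide CPM by the gene length in the deposited pre-Treg table, which also gave the coordinates and gene order. Gene names follow a rule: Rel; called genes of at least 5 CPM in the higher genotype with no overlap between genotypes, leaving out gene-model names, pseudogenes and antigen receptor segments (the 30 steepest falls and rises, and the 15 largest of each in CPM); genes with 0 counts in both libraries of 1 genotype and at least 20 in each of the other; up to 8 called members of each list; a fixed set of Treg, survival and NF-kB genes; the 10 smallest adjusted p values of each comparison between stages; and neighbours of the steepest changes. Further list members, the genes at the threshold and those with opposite changes in the spleen were named after their values were seen. The members and lists were chosen with earlier results of these data known. A floor of 3 counts covers counting error only. Some listed genes are not reported here.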

Additional observations from a re-analysis of the deposited data

Results flagged for a closer look

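These genes differed in their genotype effect between de novo Tregs and another stage by the interaction test of edgeR, each value being the log2 fold change in de novo Tregs minus that in the other stage. Against splenic Tregs, more negative values in de novo Tregs were found for Itgae, the integrin chain alpha-E (−2.97, SE 0.28, adjusted p = 0.00118), Ttc39c (−2.60, SE 0.29, adjusted p = 0.00353), Fgl2, a secreted suppressor (−2.55, SE 0.24, adjusted p = 0.00118), and the granule gene Nkg7 (−1.86, SE 0.14, adjusted p = 0.000451). The same direction held for the decoy IL-1 receptor gene Il1r2 (−1.67, SE 0.17, adjusted p = 0.00202), Axl (−1.55, SE 0.17, adjusted p = 0.00245), Fam129a (−1.53, SE 0.14, adjusted p = 0.00118) and Cd83 (−1.43, SE 0.11, adjusted p = 0.000451).

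More positive values in de novo than in splenic Tregs were found for Igfbp4 (1.27, SE 0.11, adjusted p = 0.000804) and for Ecm1, an extracellular matrix gene of activated T cells (1.11, SE 0.11, adjusted p = 0.00167). Both rose in de novo Tregs and neither was called in splenic Tregs.

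Against pre-Tregs, Ccl5 (−3.53, SE 0.44, adjusted p = 0.0347) and Nkg7 (−2.95, SE 0.31, adjusted p = 0.0241) were more negative and Rcn1 (1.73, SE 0.20, adjusted p = 0.0346) was more positive in de novo Tregs. All of these differences from pre-Tregs lost their calls without any 1 de novo library. Each of the stages sits in a count table of its own, so stage and table cannot be told apart.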

How the results depend on the processing

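The number of genes called in de novo Tregs (766, with 346 rises and 420 falls) stayed within 1.5 times under every alternative run, from 527 without wild-type replicate 1 to 1039 with no count filter. Leaving out 1 library gave 527 to 761 calls, 238 to 330 rises and 289 to 442 falls, and 449 to 566 of the calls remained in the same direction. Of 296 named genes, 226 kept their side of the threshold under all alternatives, 65 lost a call under at least 1 and 5 gained one, and none reversed. The 296 include genes that were not called to begin with, such as Foxp3 and Mcl1, which could not lose a call. The 65 losses fall on the called genes alone and are a larger share of those than of all 296. The share of calls that were rises was 41.9% to 47.8%.

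The comparison with splenic Tregs (134 calls, 63 more positive and 71 more negative) gave 381, 207 and 174 with no filter, and leaving out 1 library gave 21 to 462, 3 to 314 and 18 to 148. The comparison with pre-Tregs (3 calls, 1 and 2) gave 12, 3 and 9 with no filter and 1 more negative by limma-voom, and leaving out 1 library gave 0 to 74, 0 to 30 and 0 to 44. More genes are tested without a filter; the cause of the other shifts was not tested.

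With the replicate number as a block, 962 genes were called in de novo Tregs (436 rises, 526 falls) and 100 in the comparison with splenic Tregs (48 and 52). Same-numbered libraries did not deviate together (correlation −0.0112 of the deviations from the genotype means, 2 pairs), so the numbers are not treated as pairs. The block was not run for pre-Tregs, where 1 replicate number has no wild-type partner.

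Precision rests on 2 libraries a genotype.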

Other observations

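Several abundant genes outside the lists above also differed between genotypes. Capg, which encodes an actin-capping protein, stood at 459.7 and 586 CPM in the wild-type and 758 and 798 CPM in the knockout libraries of de novo Tregs (0.57, SE 0.10, adjusted p = 0.00609). Trib2, a pseudokinase gene, stood at 481 and 509 against 726 and 759.6 CPM (0.59, SE 0.07, adjusted p = 0.000449), and Tecpr1, a gene of autophagosome maturation, at 581 and 613 against 836 and 867 CPM (0.51, SE 0.07, adjusted p = 0.00101). All 3 rose, and the choice of these genes required a call without overlap between genotypes. In the other direction, Tspan13, a tetraspanin gene, stood at 462 and 444 against 273 and 290.0 CPM (−0.69, SE 0.07, adjusted p = 0.000195), and Cdc42se2, an effector gene of the GTPase Cdc42, at 699 and 662 against 489 and 505 CPM (−0.45, SE 0.07, adjusted p = 0.0024).

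Of 19 tested genes of Wnt signalling, 2 rose and 2 fell (21.1% called, against 6.46% of all tested genes). Beside the ligand genes Wnt3 and Wnt10a, these were Dkk3, which encodes a secreted Dickkopf family protein, at 2.65 and 3.77 against 0.677 and 0.112 CPM (−3.03, SE 0.59, adjusted p = 0.0108), and Sfrp2, a secreted Frizzled-related protein gene, at 1.12 and 0.916 against 3.23 and 3.00 CPM (1.61, SE 0.36, adjusted p = 0.0228). Sfrp2 was not called without wild-type library 2 (adjusted p = 0.0943), knockout library 1 (0.106) or knockout library 2 (0.0724). All 4 of these genes encode secreted proteins.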
